A study of Mus musculus with 24 samples.

Results

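The Hox genes of the mouse mammary gland are described here, chosen as the array probes whose gene name is Hoxa, Hoxb, Hoxc or Hoxd followed by a number. The rule took 51 of the 56605 probes that are not controls, and these stand for 39 of 36610 gene names in 4 clusters. Cluster A has 11 genes on chromosome 6, cluster B 10 on chromosome 11, cluster C 9 on chromosome 15 and cluster D 9 on chromosome 2. Signal passed the detection filter for 28 of the 39 genes (39 of the 51 probes): to be kept, a probe had to stand well above background on 80% or more of the arrays of some group.

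The study asked how a SOCS2 allele acts on the gland. SOCS2 dampens the signals of growth hormone and prolactin receptors. All mice were C57BL/6 females, and all alleles were homozygous: 7 wild-type and 7 R96C knock-in virgins were 8 weeks old, and 5 wild-type and 5 knock-in mice were at day 18 of pregnancy. The number 4 inguinal gland was taken from each of 24 separate mice with its lymph node removed, and its RNA was hybridised to a 1-colour Agilent array. No sample received an agent. For the pregnant mice the labels state the day of pregnancy but no age, so pregnancy and age cannot be told apart. The knock-in allele is a germline change carried by every cell, and an expression array does not read it, so the genotypes rest on the labels.

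Hox genes encode homeodomain transcription factors. In each cluster the genes lie in a row that matches the order in which they act along the body: low numbers, at the 3′ end, act towards the head, and high numbers, at the 5′ end, towards the tail and the tips of the limbs. Genes of the same number in different clusters are paralogues and form 13 groups. Adult cells, fibroblasts above all, keep a Hox pattern that records where in the body they arose. In the mammary gland, Hoxa9, Hoxb9 and Hoxd9 are together needed for growth of the gland in pregnancy, and genes of cluster D are active in the embryonic mammary bud.

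Because paralogues share the homeobox, the probes were first compared with each other. Over 1260 pairs of probes of different Hox genes, the longest stretch shared by a pair had a median of 6 bases of 60 and reached 12 bases in 1 pair. The 3 probes shown here lie in homeobox sequence, where paralogues are most alike. Capitals mark the longest stretch that the probe shares with a probe of any other Hox gene, and coordinates are those of the array files on mm9.
Hoxd10, A_52_P407049, chr2:74532280-74532339, plus strand: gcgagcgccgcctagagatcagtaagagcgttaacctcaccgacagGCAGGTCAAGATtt
Hoxc12, A_51_P385684, chr15:102768819-102768878, plus strand: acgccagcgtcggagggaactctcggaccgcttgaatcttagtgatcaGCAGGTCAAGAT
Hoxc11, A_66_P109273, chr15:102787015-102787074, plus strand: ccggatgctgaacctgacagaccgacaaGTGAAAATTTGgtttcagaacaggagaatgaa

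The Hoxd10 and Hoxc12 probes share 12 bases of the part that encodes the DNA-recognition helix. The longest exact stretch says nothing of shorter matches elsewhere in the probes. Hoxc12 was above background on 0 of the 12 wild-type arrays, while Hoxd10 was so on all 5 wild-type day-18 arrays. Probes were compared with other probes and not with the transcripts of paralogues, so short shared stretches do not show that a probe is specific. Whether a probe binds RNA of a paralogue was not tested.

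Detection followed the clusters. The genes not kept were mostly those at the 5′ end: Hoxa11 and Hoxa13, Hoxb13, Hoxc12 and Hoxc13, and Hoxd11, Hoxd12 and Hoxd13, which act in the limbs, the genital tract, the prostate or the hair. Hoxb1, a hindbrain gene, and Hoxd1 and Hoxd3 at the other end were not kept either. Cluster A kept 9 of 11 genes, B 8 of 10, C 7 of 9 and D 4 of 9. Hoxd3 was above background on 3 of 7 arrays in each virgin group and 2 of 5 in each day-18 group, and the other 10 genes were so on 0 to 2 arrays of a group. For 5 of the 11 genes, the array of knock-in virgin mouse 376 was the only one above background, or no array was. On that array the negative-control signal was 332, against 19.4 to 41.4 on the other 23. Its part in a result was not tested beyond leaving it out.

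**Figure D1:**
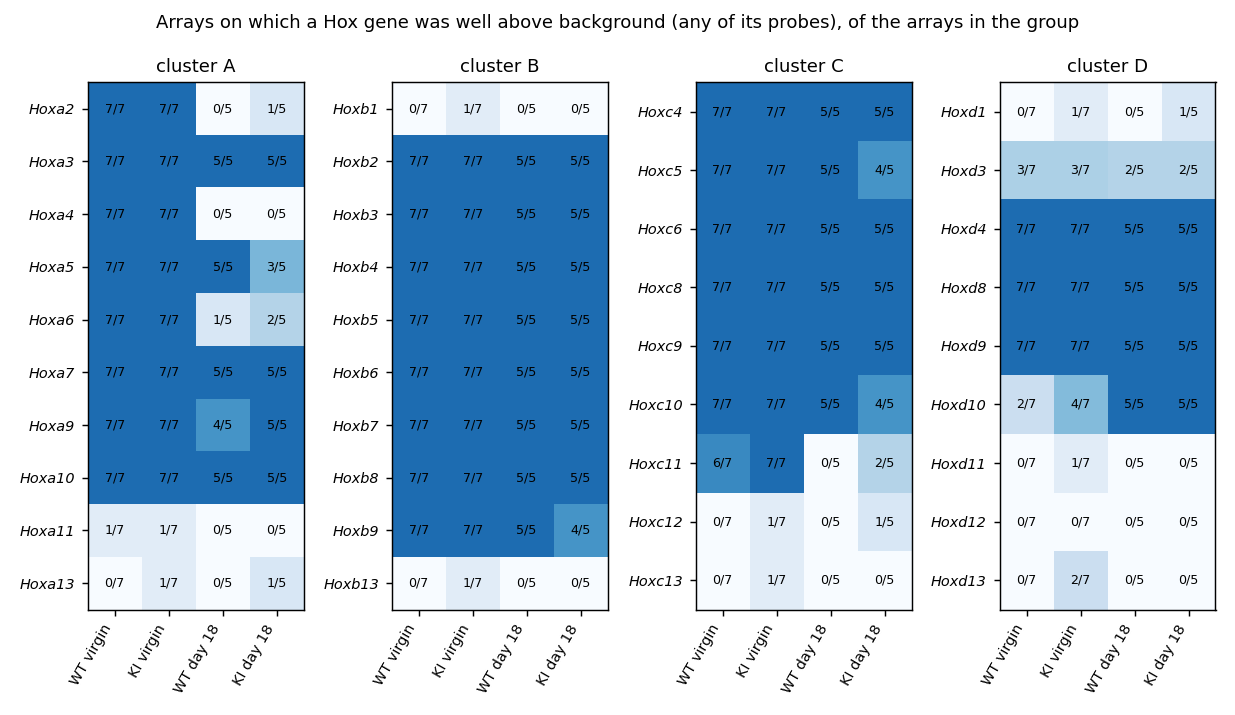
Number of arrays of each group on which each Hox gene drawn was well above background by any of its probes, one panel per cluster, with genes from the 3′ end (top) to the 5′ end (bottom) and darker cells for a larger share. Hoxd10 stands at 2 of 7 and 4 of 7 in virgins against 5 of 5 in both day-18 groups, while Hoxa4 falls from 7 of 7 to 0 of 5 in both genotypes.

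The number of Hox genes above background per array was 26 to 28 in wild-type virgins and 24 to 25 at day 18. In knock-in mice it was 27 to 38 in virgins, the highest on mouse 376, and 21 to 29 at day 18. The spots above background per array numbered 37504 to 38814 and 36168 to 57003 in wild-type and knock-in virgins, and 33413 to 37886 and 33374 to 43055 at day 18.

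From the virgin to the day-18 gland, Hox genes of clusters A, B and C fell in wild-type mice, and those of cluster D did not. Levels are log2 signals relative to the 75th percentile of the same array, and each difference is day 18 minus virgin with its standard error. The test is limma's moderated statistic over all 24 arrays, with p-values adjusted by Benjamini-Hochberg over all 22382 genes tested, and a gene is called at an adjusted p under 0.05. Lower were 23 of 28 Hox genes, where 20.9% of all genes were called lower. Higher were 3, where 20.9% of all genes were called higher. The median difference was −1.86 over the Hox genes and 0.01 over all genes. In bulk tissue, fewer cells of a type and less RNA per cell cannot be told apart.

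Under scaling to 7 spike-in probes the all-gene median shifts by −0.92, and 7.71% of the called genes are higher in place of 50.1%. The Hox counts are then 25 lower and 1 higher. The distance between the Hox median and the all-gene median was −1.87, which a change of scaling to spike-ins cannot alter by construction, and −0.92 with a normexp background correction, in which 17 Hox genes were lower and 3 higher.

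**Figure D2:**
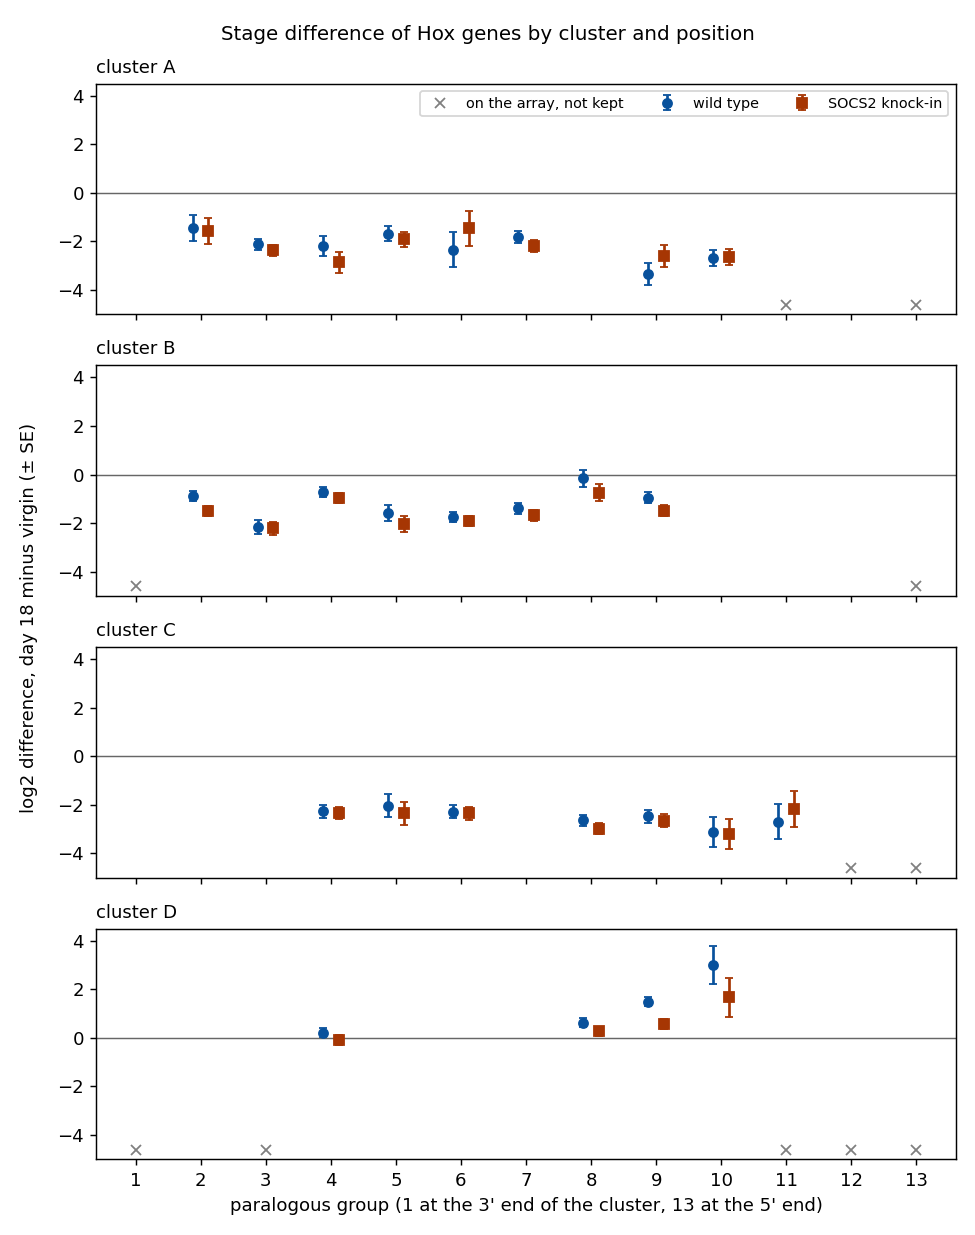
Difference in log2 signal (day 18 minus virgin, ± standard error, scaled to the 75th percentile) of kept Hox genes against their paralogous group, one panel per cluster, circles for wild type and squares for knock-in mice. Clusters A, B and C lie below 0 at every kept position (wild-type Hoxb8 is at 0.02 with median scaling), while Hoxd8, Hoxd9 and Hoxd10 lie above it in both genotypes; under spike-in scaling Hoxd8 turns to −0.30 and −0.56 and knock-in Hoxd9 to −0.27. Crosses mark genes on the array that were not kept.

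In cluster A all 9 kept genes fell in wild-type mice, with a median of −2.12. Hoxa9 stood at −2.30, −1.59 and −0.48 (lowest, median and highest of 7 arrays) in virgins and at −5.20, −5.17, −5.11, −4.69 and −4.09 on the 5 day-18 arrays. The groups do not overlap, and its probe was above background on 3 of those 5 arrays. The fall was 3.34 ± 0.45 on the log2 scale, a 10.1-fold decrease (adjusted p = 3.23e-06). Hoxa10, a gene of the uterus and hind body, ranged from 0.36 to 1.04 with a median of 0.83 in virgins, and read −2.41, −2.16, −1.87, −1.75 and −1.41 at day 18. No day-18 array reached the virgin range, and the difference was −2.70 ± 0.33 (adjusted p = 9.14e-07).

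Of the genes nearer the 3′ end, Hoxa3 changed by −2.12 ± 0.23, Hoxa5 by −1.68 ± 0.31 and Hoxa7 by −1.81 ± 0.25, with adjusted p-values from 2.25e-07 to 0.000159. Hoxa5, which mice need for normal mammary growth, was at −3.46 to −2.52 in virgins and −5.03 to −4.18 at day 18. Hoxa2 and Hoxa4 were above background on all 7 virgin arrays and on 0 of 5 day-18 arrays, so the size of their fall is uncertain. Against a floor for the day-18 arrays, Hoxa4 was 2.47-fold lower and Hoxa2 2.22-fold lower. With normexp, Hoxa4 changed by −0.13 (adjusted p = 0.606) and Hoxa2 by −0.0106 (adjusted p = 0.979), and neither was called. For this floor, each day-18 array counts the higher of its measured value and its lowest signal well above background. That signal is taken over all probes and is no strict limit for a single gene. The Hoxa2 call (adjusted p = 0.0305) is lost without any 1 of 4 wild-type mice, 365, 233, 232 or 235. Hoxa6 changed by −2.33 ± 0.71 (adjusted p = 0.0102), and its probe was above background on 1 of 5 day-18 arrays. With normexp Hoxa6 changed by −0.23 and was not called (adjusted p = 0.692).

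In cluster B, 7 of 8 kept genes fell in wild-type mice, and the median was −1.17. Hoxb3, at −2.27 to −1.47 in virgins and −4.37 to −3.44 at day 18, changed most, by −2.16 ± 0.28 (adjusted p = 1.59e-06). Hoxb5, Hoxb6 and Hoxb7 changed by −1.60, −1.74 and −1.38. Changes under 1 log2 unit were those of Hoxb2 (−0.90 ± 0.20), of Hoxb4 (−0.72 ± 0.21), a gene of blood stem cells, and of Hoxb9 (−0.96 ± 0.23). Hoxb9 read −3.10, −2.88 and −2.76 (lowest, median, highest) in virgins and −4.17, −4.07, −3.85, −3.63 and −3.58 at day 18, without overlap. Hoxb8 was the exception: it spanned −2.53 to −0.80 in virgins and −1.94 to −1.32 at day 18, and its difference of −0.16 ± 0.36 was not called (adjusted p = 0.762; 95% interval −0.90 to 0.58). With spike-in scaling Hoxb8 changed by −1.08 and was called (adjusted p = 0.0262). With each array scaled to its median, the calls for Hoxb2, Hoxb4, Hoxb7 and Hoxb9 are lost.

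In cluster C all 7 kept genes fell in wild-type mice, with a median of −2.48. Hoxc8, Hoxc9 and Hoxc10 mark the posterior trunk, where the inguinal gland lies. Hoxc8 stood at 0.76, 1.19 and 1.33 in virgins and at −1.87, −1.54, −1.52, −1.50 and −1.38 at day 18, a fall of 2.64 ± 0.24 (adjusted p = 1.32e-08). Hoxc9 went from 1.39, 1.57 and 1.90 to −1.24, −0.99, −0.80, −0.72 and −0.59, a difference of −2.48 ± 0.28. Both groups of both genes stay well apart.

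Hoxc10 changed by −3.13 ± 0.61, an 8.75-fold decrease, from −0.94, −0.58 and −0.08 to −4.31, −4.11, −3.84, −3.22 and −3.05. Hoxc6 read 1.90, 2.09 and 2.27 in virgins and −0.67, −0.45, −0.13, −0.08 and 0.29 at day 18, a fall of 2.28 ± 0.26 with no overlap. Hoxc4 fell by 2.27 ± 0.26. Hoxc5 changed by −2.03 ± 0.46. Hoxc11 was above background on 6 of 7 virgin and 0 of 5 day-18 arrays. It was called lower (adjusted p = 0.00433) and was 1.48-fold lower against the floor used for Hoxa2 and Hoxa4. With normexp Hoxc11 changed by −0.0055 and was not called (adjusted p = 0.992).

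In cluster D none of the 4 kept genes was called lower in wild-type mice. Hoxd9 read −2.75, −2.60 and −1.99 in virgins and −1.26, −1.13, −1.09, −0.88 and −0.75 at day 18. The 5 day-18 arrays all lie above the 7 virgin arrays. The difference was 1.49 ± 0.20, a 2.81-fold increase (adjusted p = 2.27e-06); with spike-in scaling it was 0.57 and not called (adjusted p = 0.098). Within the 3 slides it was 1.76, 1.31 and 1.496.

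Hoxd10 was dim in virgins, at −7.79, −6.18 and −4.91 with 2 of 7 arrays above background, and read −3.56, −3.50, −3.37, −3.22 and −2.83 on the 5 day-18 arrays, all above background. The groups do not overlap. The difference of 3.01 ± 0.79 (adjusted p = 0.00365) stayed positive and called with spike-in scaling (2.09, adjusted p = 0.0284) and was 1.09 with normexp. Hoxd8 went from 0.52, 0.73 and 1.17 to 1.03, 1.24, 1.35, 1.53 and 1.69, with some overlap. Its difference was 0.62 ± 0.18 (adjusted p = 0.0084), but −0.30 with spike-in scaling and not called with median scaling. Hoxd4, with a range of −0.65 to 0.26 in virgins and −0.73 to 0.58 at day 18, differed by 0.21 ± 0.21 (adjusted p = 0.439), and by −0.70 with spike-in scaling (adjusted p = 0.0293).

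The differences of cluster D were then set in the order of its genes. On mm9 the probe of Hoxd8 lies 20.9 kb from that of Hoxd4, the probe of Hoxd9 29.2 kb and that of Hoxd10 34.6 kb, and the differences in this order were 0.21, 0.62, 1.49 and 3.01. With normexp Hoxd10 no longer exceeded Hoxd9, at 1.09 against 1.11 in wild-type and 0.46 against 0.50 in knock-in mice, and the value of 3.01 rests on a probe above background on 2 of 7 virgin arrays. No test of the order was made.

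Groups did not overlap for 22 of the 23 lower Hox genes in wild-type mice, all but Hoxb2, where 18.9% of all genes were lower without overlap. Of the 3 higher genes, Hoxd9 and Hoxd10 did not overlap, where 20.3% of all genes were higher in this way. In an exact two-sided permutation test over all ways to split the 12 wild-type arrays, Hoxd9 and 22 of the 23 lower genes reached p = 0.00126, the smallest that this test can give. Where groups do not overlap, this p-value follows almost directly from the separation and adds no support of its own. Among the genes without overlap, Hoxa2, Hoxa4, Hoxa6 and Hoxc11 passed the detection filter only through the virgin groups and Hoxd10 only through the day-18 groups, where each was high. Their separation, p-values and calls are thus partly set by the filter. The median difference over all kept Hox genes was −2.004, −1.76 and −1.79 within the 3 slides. For cluster D it was 1.31, 0.88 and 1.07. Slide 1 held 1 wild-type day-18 array.

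**Figure D3:**
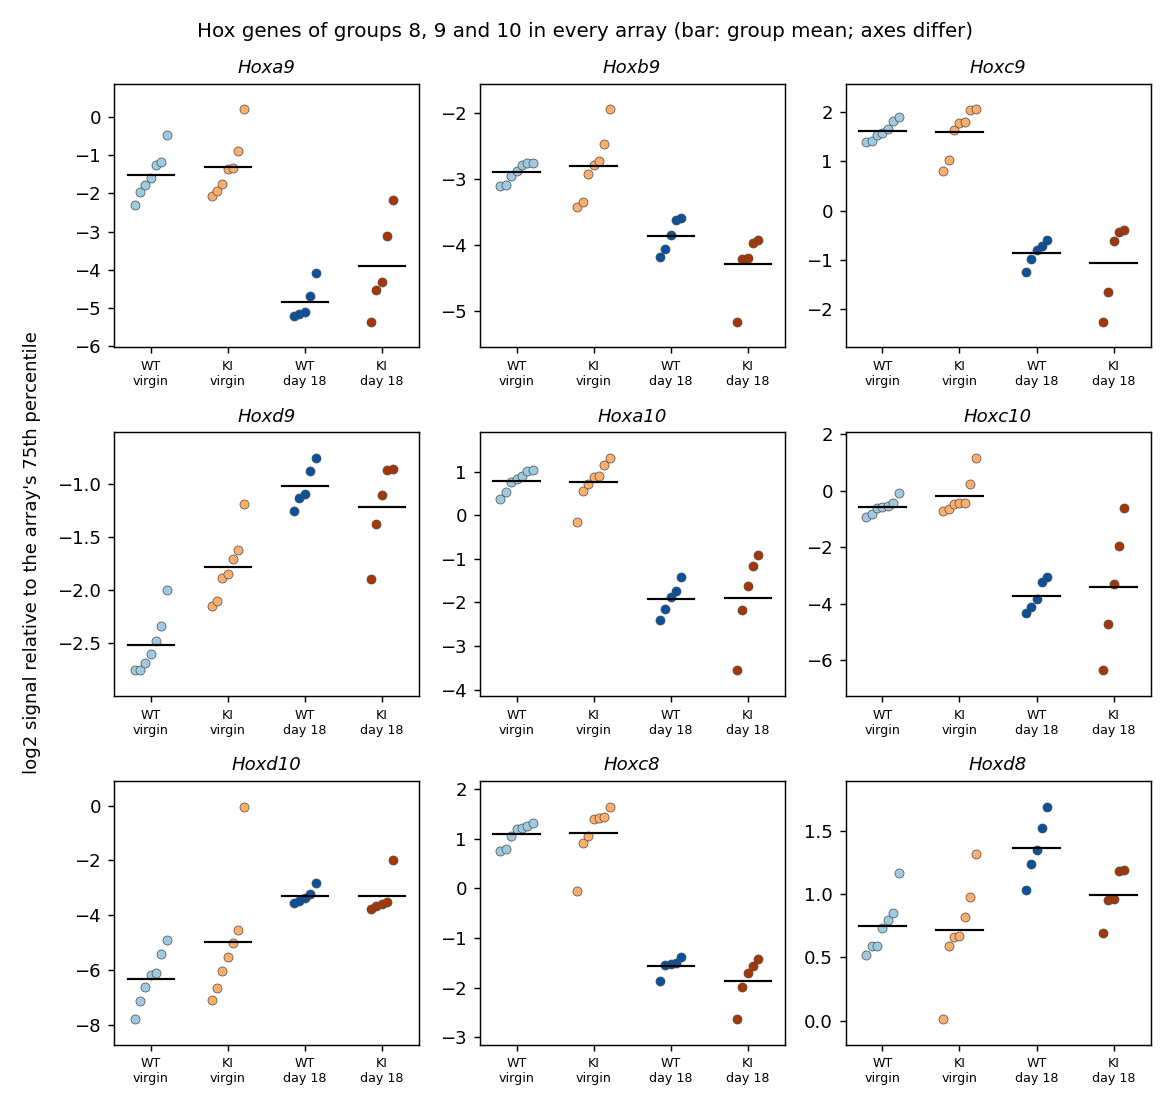
Log2 signal relative to the 75th percentile of its array for 9 Hox genes of paralogous groups 8, 9 and 10, 1 point per mouse and a bar at the group mean, with a scale of its own in each panel. Hoxa9, Hoxb9, Hoxc9, Hoxa10, Hoxc10 and Hoxc8 drop from the virgin to the day-18 groups, whereas Hoxd8, Hoxd9 and Hoxd10 do not; with spike-in scaling Hoxd8 turns below 0 in both genotypes and Hoxd9 in knock-in mice. The single high virgin point of Hoxd10, at −0.05, is knock-in mouse 376.

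The contrast between cluster D and its paralogues does not depend on scaling by 1 value per array, since the difference of 2 genes on 1 array cancels it. Each gene of cluster D was therefore set against the paralogues of its own number, which gave 10 pairs. Only the shift of such a difference between stages can be read, because probes differ in brightness. Quantile normalization and normexp do not cancel in this way. With normexp, wild-type Hoxd9 changed by 1.11 and Hoxb9 by −0.22, against 1.49 and −0.96 with the main processing. In wild-type mice the difference between a gene and its paralogue, with the main processing, shifted upwards in all 10 pairs. Hoxd9 minus Hoxa9 was −2.27, −1.16 and 0.30 (lowest, median, highest) in virgins and 2.96, 3.86 and 4.44 at day 18, a shift of 4.83, with Hoxa9 above background on 3 of 5 day-18 arrays. Hoxd9 minus Hoxc9 went from −4.57, −4.10 and −3.56 to −0.29, −0.14 and −0.01, a shift of 3.97. Hoxd9 minus Hoxb9 went from 0.00, 0.42 and 0.80 to 2.37, 2.72 and 3.42, a shift of 2.45. In all 3 pairs of group 9 the stages lie apart.

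Hoxd8 minus Hoxc8 shifted by 3.26, from −0.67, −0.27 and −0.02 to 2.53, 3.06 and 3.11. Hoxd4, which was not called on its own, shifted against Hoxc4 by 2.49 without overlap. Its shift of 2.40 against Hoxa4 rests on day-18 values of Hoxa4 that were not above background on any array. Against Hoxb4, the shift was 0.93 and the groups overlapped. Hoxd8 minus Hoxb8 shifted by 0.78, again with overlap. Hoxd10 shifted by 5.70 against Hoxa10 and by 6.14 against Hoxc10, where the virgin values rest on signal near background. In knock-in mice all 10 shifts were also upwards, from 0.85 (Hoxd4 against Hoxb4) to 4.87 (Hoxd10 against Hoxc10), and the groups lay apart in 5 of them: the 3 pairs of group 9, Hoxd8 minus Hoxc8 and Hoxd4 minus Hoxc4. These shifts follow from the single-gene differences and are given as a description.

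**Figure D4:**
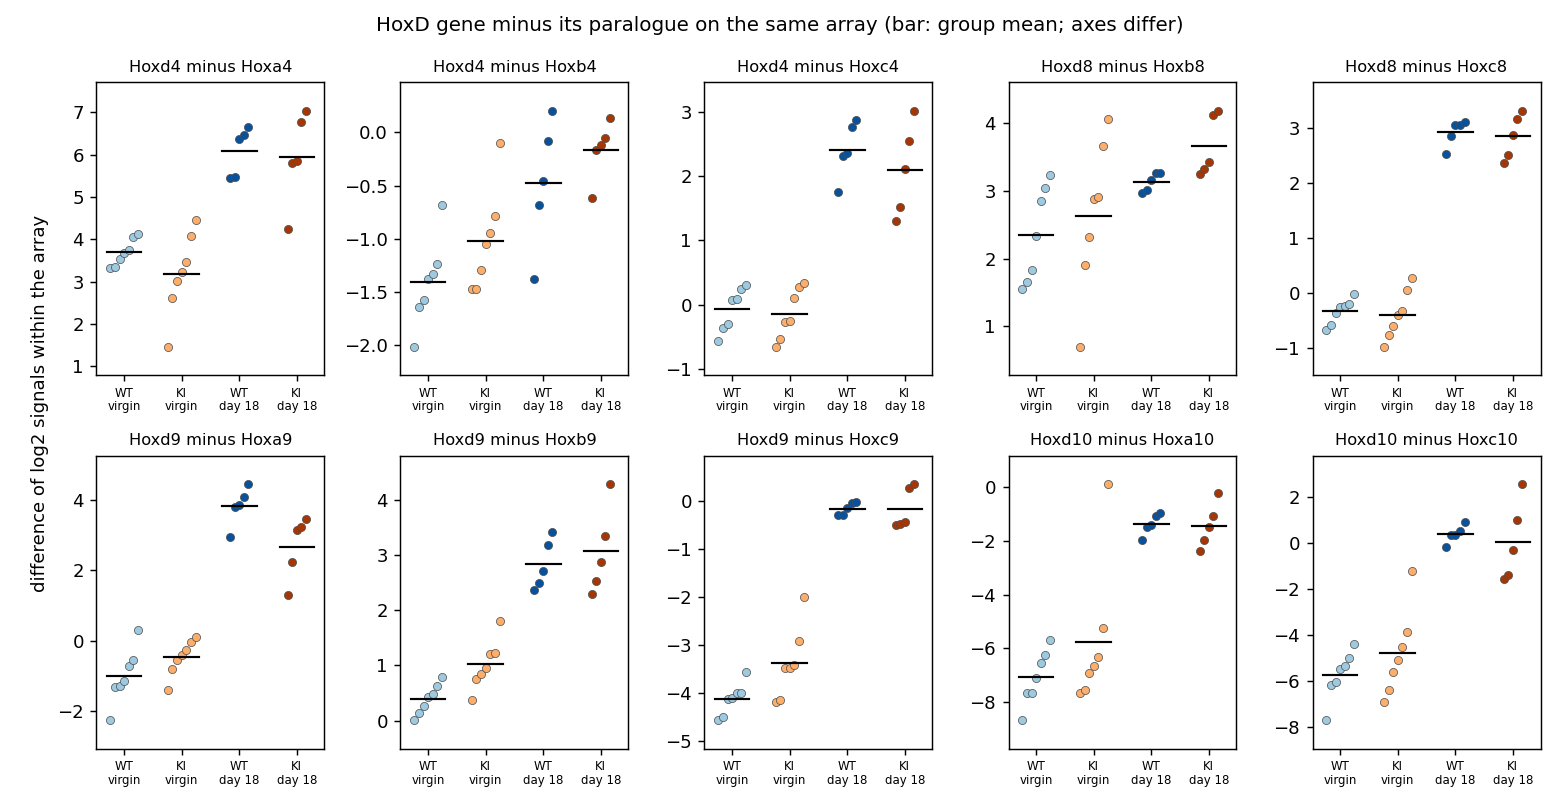
Difference of log2 signals between a gene of cluster D and its paralogue on the same array for 10 pairs, 1 point per mouse, with a bar at the group mean and a scale of its own in each panel; the zero point has no meaning, since the probes differ in brightness. The day-18 mean lies above the virgin mean in every pair and both genotypes, by 4.83 in wild-type mice for Hoxd9 minus Hoxa9 and by 0.78 for Hoxd8 minus Hoxb8.

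In knock-in mice, too, genes of clusters A, B and C fell. Of 28 Hox genes, 22 were lower (20.3% of all genes) and 1, Hoxd9, was higher (22.9% of all genes), with a median of −1.98 against 0.05 over all genes. The median was −2.20 in cluster A, −1.58 in B, −2.36 in C and 0.42 in D. The 22 lower genes were also lower in wild-type mice, and 27 of 28 genes had the same sign, the exception being Hoxd4. The stage comparisons of the genotypes share no mice. Pearson's r between their differences was 0.96 over the 28 genes, which share arrays within a genotype and are not independent. Under spike-in scaling 26 Hox genes were lower and 0 higher. The lower genes then included Hoxd4 (−0.93, adjusted p = 0.0066) and Hoxd8 (−0.56, adjusted p = 0.0477) of cluster D. Averaged over the genotypes, 23 were lower (27% of all genes) and 3 higher (29.4%).

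Among the posterior genes of knock-in mice, Hoxc8 read −2.64, −1.99, −1.70, −1.56 and −1.42 at day 18 against −0.05, 1.39 and 1.64 (lowest, median, highest) in virgins, a difference of −2.98 ± 0.24 (adjusted p = 2e-09). Hoxc9 changed by −2.65 ± 0.28 and Hoxa10 by −2.65 ± 0.33. Hoxa9 changed by −2.59 ± 0.45, a 6.01-fold decrease. Its other probes differed: A_66_P116392 changed by −3.17, but A_55_P2746517 by −0.996, which was not called (adjusted p = 0.212 over all probes). Hoxb9 changed by −1.48 ± 0.23. Against the same kind of floor Hoxa4 was 3.06-fold lower, but with normexp it changed by −0.41 and was not called (adjusted p = 0.0673). Between the knock-in groups, 16 genes were lower with no overlap (7.65% of all genes) and 0 higher (12.6%).

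Hoxd9 of knock-in mice read −2.15, −1.85 and −1.19 in virgins and −1.89, −1.38, −1.10, −0.87 and −0.86 at day 18. The groups overlap, and the difference was 0.57 ± 0.20 (adjusted p = 0.0219), but −0.27 with spike-in scaling. The call is lost without mouse 211, 184 or 183, and with median scaling (0.77, adjusted p = 0.104). Hoxb4 of knock-in mice also loses its call with median scaling (−0.75, adjusted p = 0.317). Hoxd10 read −3.78, −3.66, −3.59, −3.53 and −2.001 at day 18 against −7.10, −5.50 and −0.05 in virgins, and its difference of 1.67 ± 0.79 was not called (adjusted p = 0.0938). Without mouse 376, the virgin at −0.05, it was 2.49 and called (adjusted p = 0.000135). The other genes not called in knock-in mice were Hoxa6 (−1.47, adjusted p = 0.1), Hoxb8 (−0.75, adjusted p = 0.094), Hoxd4 (−0.10, adjusted p = 0.745) and Hoxd8 (0.27, adjusted p = 0.241). Without mouse 184, Hoxa6 was lower by −2.23 and called (adjusted p = 0.00617).

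Between genotypes no Hox gene was called at either stage, nor was any of the 22382 genes (0%). At an unadjusted p under 0.05, 1 Hox gene passed in virgins (3.58% of all genes), 4 at day 18 (1.97%) and 1 in the genotype-by-stage interaction (1.02%). In virgins this was Hoxd9, at −2.15, −1.85 and −1.19 in knock-in against −2.75, −2.60 and −1.99 in wild-type mice. These groups overlap, as they did for every kept Hox gene in virgins, where 0.00894% of all genes were higher without overlap and 0.00447% lower. The difference of knock-in minus wild type was 0.73 ± 0.18 (95% interval 0.36 to 1.10, exact permutation p = 0.00175, adjusted p = 0.702 by limma), and 0.87, 0.49 and 0.70 within the slides. At day 18 the Hoxd9 difference was −0.20 (95% interval −0.63 to 0.24). Its interaction, the stage difference of knock-in minus that of wild-type mice, was −0.92 ± 0.28 (95% interval −1.496 to −0.35, adjusted p = 1 by limma).

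At day 18 the Hox genes with an unadjusted p under 0.05 were Hoxb2, Hoxb4, Hoxb8 and Hoxc11. Hoxb2 read −2.03, −1.76, −1.68, −1.47 and −0.99 in wild-type mice and −2.57, −2.55, −2.19, −2.14 and −2.05 in knock-in mice. Hoxb8 read −1.94, −1.92, −1.92, −1.74 and −1.32 against −3.50, −2.93, −2.47, −2.37 and −2.08. Hoxb4 read 0.24, 0.36, 0.38, 0.48 and 0.65 against −0.27, −0.25, −0.05, 0.00 and 0.13. In all 3 genes each knock-in mouse lay below each wild-type mouse, where 0.809% of all genes did. The reverse held for 0 Hox genes and 0.442% of all genes.

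The differences were −0.71 for Hoxb2 (95% interval −1.17 to −0.25), −0.90 for Hoxb8 (−1.70 to −0.11) and −0.51 for Hoxb4 (−0.97 to −0.045), each with adjusted p = 1 by limma. They were below 0 within each slide, at −1.35, −0.59 and −0.44 for Hoxb2. In cluster B 7 of 8 genes were below 0 at day 18, with a median of −0.46, against −0.19 over all Hox genes and −9e-04 over all genes. For Hoxc11, whose probe was above background on 0 of 5 wild-type and 2 of 5 knock-in arrays, no difference can be bounded. For other genes the intervals still allow sizeable differences: Hoxa9 at day 18 differed by 0.96 (−0.05 to 1.96) and Hoxc9 by −0.20 (−0.82 to 0.43).

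Where a gene had several probes, most moved alike. The 3 Hoxa9 probes changed by −3.34, −3.00 and −2.08 in wild-type mice, the 3 Hoxa3 probes by −3.13, −2.12 and −1.78, and the pair for Hoxc6 by −2.28 and −2.42. A second Hoxd8 probe, A_55_P1977649, changed by 0.53 in wild-type mice (adjusted p = 0.0571) and by 0.07 in knock-in mice (adjusted p = 0.824). It was called in neither. In wild-type mice Hoxb3 was the clear exception. The probe that stands for the gene fell by 2.16, while A_55_P2721752 changed by −0.18 (adjusted p = 0.631) and A_55_P2902313 by 0.24 (adjusted p = 0.722). With the mean of the 3 probes, Hoxb3 changed by −0.70 and was not called (adjusted p = 0.0639). For Hoxb2, a second probe annotated on the opposite strand changed by −0.33 (adjusted p = 0.334). Counted by probe, 29 of 39 were lower (20.7% of all probes) and 3 higher (18.2%) in wild-type mice. In knock-in mice 27 were lower (20.2%) and 1 higher (19.3%).

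Non-coding RNAs of the clusters were read by 12 probes for 8 names, of which 8 probes were kept. In wild-type mice 3 of these were lower (20.7% of all probes) and 0 higher, and in knock-in mice 5 were lower (20.2%) and 0 higher. Of the probes named Hoxaas3 in cluster A, A_66_P114788 on the plus strand changed by −1.11 ± 0.49 in wild-type mice (adjusted p = 0.0806). The other, A_55_P2304482, lies on the minus strand, that of the Hoxa genes, and changed by −2.11 ± 0.31. The Hoxb5os probe A_55_P2275437 changed by −1.66 and the other, A_66_P128000, by 0.31 (adjusted p = 0.64). Hoxd3os1, the transcript in cluster D that was kept, changed by −1.18 ± 0.56 (adjusted p = 0.105). Some of these transcripts overlap Hox genes on the other strand.

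Upstream sequence is shown for Hoxd9 and Hoxd10, which rose in wild-type mice, and for Hoxd4 and Hoxb8, which were not called. In the RefSeq promoter table (GRCm38.p6), 14 of the 28 kept genes had an entry, with 15 promoters. In the 250 bases upstream of the start, 3 motifs were searched on both strands. The motifs were TTCNNNGAA (the site type of STAT5), TGATTNAT (the site type of PBX-HOX dimers) and TATAAA (the TATA box). They occur in 7.02%, 2.82% and 12.4% of all 32851 promoters. Among the 15 Hox promoters, TTCNNNGAA occurred in 1 (Hoxd4), TGATTNAT in 1 (Hoxa2) and the TATA box in 3 (Hoxd4, Hoxb8 and 1 of 2 for Hoxa10). Capitals mark matches, and those of the TATA box lie on the other strand.
Hoxd4, chr2:74721728-74721977, plus strand: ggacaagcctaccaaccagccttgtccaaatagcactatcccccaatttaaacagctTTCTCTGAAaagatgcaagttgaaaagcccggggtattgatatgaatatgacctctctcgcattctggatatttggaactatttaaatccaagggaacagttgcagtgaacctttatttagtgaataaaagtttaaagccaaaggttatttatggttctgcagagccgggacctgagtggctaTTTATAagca
Hoxd9, chr2:74697513-74697762, plus strand: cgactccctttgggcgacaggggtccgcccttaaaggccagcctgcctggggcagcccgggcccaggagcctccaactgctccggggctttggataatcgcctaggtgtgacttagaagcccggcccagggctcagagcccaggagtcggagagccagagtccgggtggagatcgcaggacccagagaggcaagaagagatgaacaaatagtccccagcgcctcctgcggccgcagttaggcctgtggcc
Hoxd10, chr2:74691641-74691890, plus strand: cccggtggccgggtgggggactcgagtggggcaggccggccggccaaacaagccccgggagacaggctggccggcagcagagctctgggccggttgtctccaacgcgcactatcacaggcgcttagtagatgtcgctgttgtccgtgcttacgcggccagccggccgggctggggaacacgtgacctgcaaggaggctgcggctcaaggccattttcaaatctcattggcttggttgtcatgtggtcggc
Hoxb8, chr11:96281655-96281904, plus strand: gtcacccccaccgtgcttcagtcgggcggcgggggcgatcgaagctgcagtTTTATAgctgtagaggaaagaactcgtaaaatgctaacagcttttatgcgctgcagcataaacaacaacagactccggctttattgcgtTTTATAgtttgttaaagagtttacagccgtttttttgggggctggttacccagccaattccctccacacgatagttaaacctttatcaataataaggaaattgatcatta

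The windows of Hoxd9 and Hoxd10 hold none of the 3 motifs, and are GC-rich at 65.2% and 65.6%. Those of Hoxd4 and Hoxb8 have 40.4% and 44.4%, beside a median of 58% over the 15 Hox promoters and 52.4% over all promoters. GC content did not separate the genes by direction. Hoxd8, also called higher in wild-type mice, has 44.4% and none of the motifs. Genes called lower range from 46.4% (Hoxa2) to 65.2% (Hoxa6). Hoxa3, Hoxa5 and Hoxa6, at 64.8%, 63.6% and 65.2%, were called lower and hold none of the motifs either. A match describes letters and no site.

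Genes that work with or upon the clusters were followed in lists, whose counts are to be read beside all genes. Of all genes, 20.9% were called higher and 20.9% lower in wild-type mice, and 22.9% and 20.3% in knock-in mice. The TALE homeodomain proteins bind DNA beside Hox proteins. Of 10 tested members, 3 fell in wild-type mice, Meis1 by 1.72 ± 0.19 and Meis2 by 2.50 ± 0.26 among them, against 8 with spike-in scaling. Higher were 2, of which Tgif1 changed by 0.91, but by −0.01 with spike-in scaling, which left 0 higher. In knock-in mice 3 were lower and 3 higher. Polycomb and trithorax proteins keep Hox genes off and on: 4 of 24 were higher in wild-type mice, no larger a share than of all genes, and 0 lower. Ezh2 was one of them (0.95 ± 0.24, but 0.03 with spike-in scaling). With spike-in scaling 0 were higher and 17 lower. In knock-in mice 9 were higher and 1 lower, against 0 and 8 with spike-in scaling. With median scaling 0 of the 24 were higher and 0 lower in each genotype.

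Retinoic acid switches on 3′ Hox genes in the embryo. Of 16 tested genes of its pathway 8 were lower and 0 higher in wild-type mice, including the retinol carrier Rbp4 (−2.23 ± 0.39), the synthetic enzyme Aldh1a2 (−2.11 ± 0.39), the degrading enzyme Cyp26b1 (−2.42 ± 0.55) and the receptor Rxrg (−3.20 ± 0.42). In knock-in mice 6 were lower and 2 higher, against 12 and 0 with spike-in scaling. Of 9 tested genes at the ends of the clusters or of the caudal family, 1 was lower in wild-type mice, Snx10 (−1.09 ± 0.26), and 2 in knock-in mice. Other transcription factors that mark position in mesenchyme all passed the test: 16 of 21 were lower and 5 higher in each genotype, with a median of −2.18 in wild-type mice. Tbx5 fell by 3.56 and Osr2 by 3.36, and Pitx1, a hindlimb factor, by 3.88 with 1 of 5 day-18 arrays above background. With normexp the differences of Tbx5, Osr2 and Pitx1 were −1.32, −2.59 and −0.80. Of the 5 higher genes of wild-type mice, Irx1, Irx2, Irx3 and Irx5, named after their values were seen, changed by 1.97 to 3.72, and all 4 were also higher with spike-in scaling.

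Markers of the tissue's cells moved with the stage too. All 10 fibroblast markers were above background on all 24 arrays and lower at day 18 in both genotypes, with a median of −1.65 in wild-type mice. Their mean level per array was 4.80 to 5.53 in wild-type virgins and 2.64 to 3.71 at day 18, and 3.52 to 5.49 and 2.37 to 4.03 in knock-in mice. Of 10 white adipocyte markers 6 were lower in wild-type mice (mean level 6.26 to 6.55 in virgins, 4.89 to 5.37 at day 18). Endothelial markers were lower for 4 of 8, nerve and Schwann cell markers for 5 of 6, and leukocyte markers for 3 of 7 with 1 higher. Luminal epithelial markers were higher for 6 of 10 (0.75 to 2.84 against 3.90 to 4.41), basal and myoepithelial ones for 5 of 8, and milk genes for 6 of 6. With spike-in scaling 10 adipocyte, 8 endothelial and 5 leukocyte markers were lower and 3 luminal, 4 basal and 6 milk markers higher, while median scaling left 4 of 10 fibroblast markers called lower. Skeletal muscle markers, called for 0 of 8, spanned −4.81 to 6.78 within wild-type virgins alone. At day 18 they spanned −5.14 to 0.26 in wild-type and −4.88 to 5.84 in knock-in mice. In knock-in mice luminal markers spanned −2.92 to 2.42 in virgins and 3.98 to 4.68 at day 18. Knock-in virgin mouse 198 had the lowest luminal level, −2.92, and the highest muscle level, 7.47. The part of these cell types in the Hox differences was not tested.

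**Figure D5:**
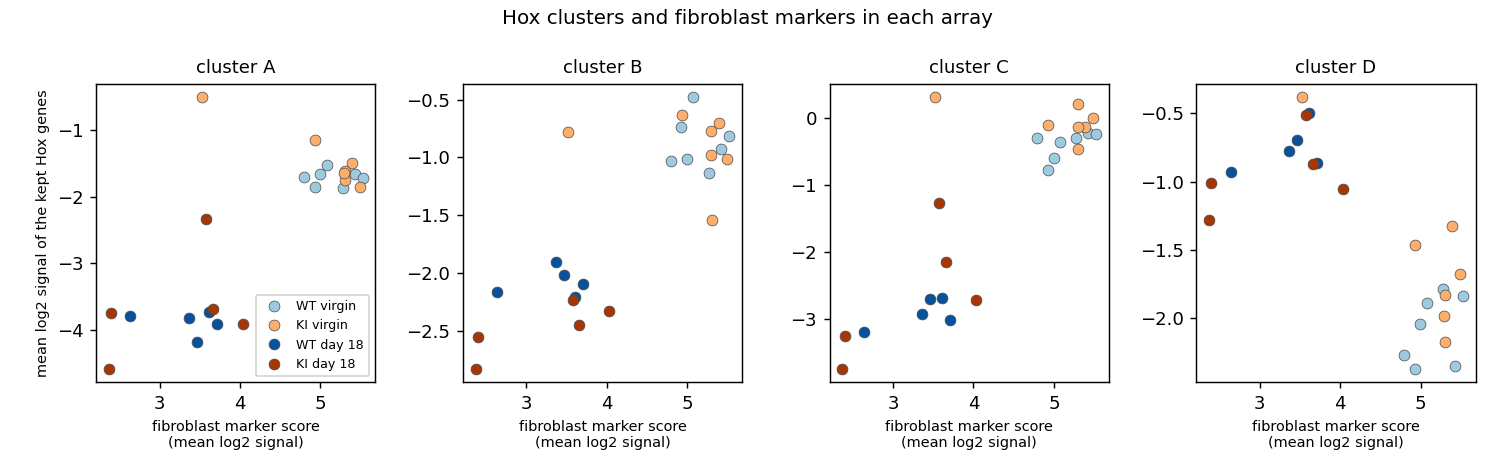
Mean log2 signal of the kept Hox genes of each cluster (vertical) against the mean log2 signal of 10 fibroblast markers (horizontal) on each array, both relative to the 75th percentile, 1 point per mouse coloured by group. In wild-type mice the cluster A, B and C means are higher in virgins, where the fibroblast score is higher, and the cluster D mean is not; the lone knock-in virgin at a fibroblast score of 3.52 is mouse 376.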

How the data were processed

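Total RNA of 24 glands was hybridised to 1-colour Agilent arrays on 3 slides and read with Agilent Feature Extraction 12.0.3.2, per the file headers. The deposited spot signals are intensities, background-subtracted by the scanner software, and detection flags came with them. The series value table holds log10 values deposited by the authors: over 62969 features it differs from the log10 processed signal by at most 0.0050 on each of the 24 arrays, with column medians of 1.310 to 3.230. Of the columns with values, 0 were left unmapped to a sample.

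From the deposited intensities, log2 signals were computed here and each array's 75th percentile of its non-control spots was subtracted. Spots marked as outliers were set missing (2 of the Hox spots, both of mouse 376), and 0 Hox spots were saturated. Of 59305 non-control spots, repeated spots of a probe were averaged, 35117 of 56605 probes passed the detection filter, and the brightest kept probe stood for each of 22382 genes. Probe accessions were named through the RefSeq gene table. The precision is limited by the number of arrays.

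limma 3.58.1 in R 4.3.3 fitted a mean per group over all 24 arrays and was tested on simulated data; p-values were adjusted over all genes. Levels were not compared between probes. Alternatives were median, quantile and spike-in scaling, normexp (offset 50), other detection filters, the mean over probes, slide as a block, array weights, and leaving out single mice or mice that stood apart. Every Hox gene could be named; values by array were given for those with the largest stage differences and for paralogous groups 8 to 10, and at most 4 genes of another list by their wild-type difference. The members, lists and tests were chosen with earlier results of these data known. The labels name separate mice. Some items are not reported here singly but enter the counts, medians and cluster means.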

Additional observations from a re-analysis of the deposited data

Results flagged for a closer look

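Within 108 gene-by-group sets of values, 15 held a mouse far from the others of its group by Dixon's gap criterion at the 95% level, which chance passes in about 1 of 20 groups. Knock-in virgin mouse 376 accounted for 7 of these and knock-in day-18 mouse 184 for 5. Mouse 376 was highest for Hoxa2 (−1.01, next −3.44), Hoxa6 (0.51, next −3.02), Hoxc5 (0.79, next −1.54) and Hoxd10 (−0.0465, next −4.53). It was lowest for Hoxa3 (−1.66, next −0.33), Hoxc6 (0.55, next 1.94) and Hoxc8 (−0.046, next 0.92). Dim genes were thus high and bright genes low on this array, on which the negative-control signal was 332.

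Mouse 184 was highest for Hoxa2 (−2.52, next −5.15), Hoxa6 (−1.43, next −4.68), Hoxc5 (−1.36, next −3.88) and Hoxd10 (−2.001, next −3.53), and lowest for Hoxb9 (−5.15, next −4.22). Single values stood apart for Hoxa3 in wild-type day-18 mouse 206 (−2.85, next −2.31), Hoxa7 in knock-in day-18 mouse 239 (−1.31, next −0.52) and Hoxb2 in knock-in virgin mouse 198 (−1.71, next −0.79).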

How the results depend on the processing

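No paired analysis was possible because every mouse number occurs once. Of the counts and medians of Hox genes recomputed under other settings, 609 stayed within the spread or 1.5 times the count. Beyond that limit, 11 medians moved, 6 counts were smaller and 4 larger. The sign of a median was not part of this rule. Genotype and interaction counts of 0 that stayed at 0 are among the 609. With spike-in scaling the higher genes numbered 1 in wild-type mice, 0 in knock-in mice and 1 in the average over genotypes, and the median differences were −2.78, −2.81 and −2.77. Higher genes of knock-in mice numbered 2 with array weights, 2 without mice 376 and 184, and 2 without these and 198. With normexp the medians were −0.78, −1.07 and −0.92, and with no filter (39 genes) −1.38, −1.49 and −1.51, in the same order; the cause was not tested. Median scaling gave genotype medians of −0.26 in virgins and −0.56 at day 18. Leaving out 1 mouse, the higher genes of knock-in mice numbered 0 to 2: 2 without mouse 376 and 0 without 211, 184 or 183. The lower genes numbered 22 to 23 in wild-type and 20 to 23 in knock-in mice without 1 mouse, and 17 to 25 and 19 to 26 over the other settings. Reversed were Hoxb8 in wild-type mice (0.019, median scaling), Hoxd4 in wild-type mice (−0.70, spike-in) and in knock-in mice (0.10 with median scaling, 0.012 with quantile), Hoxd8 (−0.30 and −0.56, spike-in) and Hoxd9 of knock-in mice (−0.27, spike-in). Normexp ended the calls of Hoxa2, Hoxa4 and Hoxc11 in both genotypes. It also ended those of Hoxa6, Hoxb9 and Hoxc5 in wild-type mice, and quantile normalization those of Hoxa3 and Hoxb9 in both genotypes and Hoxb2 in wild-type mice. Hoxc11 in knock-in mice was not called without mouse 210 or 183, nor Hoxa2 without 211, 239 or 183. Signal near background limits Hoxa2, Hoxa4, Hoxa6, Hoxc11 and virgin Hoxd10.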
